A study of Mus musculus with 22 samples.

Results

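Rps24 encodes a protein of the small ribosomal subunit. In these data the gene held 2 skipped-exon events, of 10873 listed over all libraries, and both were present in each of the 7 libraries. A skipped-exon event is a set of 3 neighbouring exons in which the middle one, the cassette exon, can be included or left out. The members are all events whose span lay inside the RefSeq span of Rps24 (chromosome 14, 24490678 to 24496960, plus strand, mm10). The gene itself was chosen by measured values: the inclusion of its 20-nucleotide exon in HP1 knock-downs of WT cells against untransfected WT cells. That contrast is therefore described here and not tested.

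The study's title places HP1, the chromatin proteins that recognise methylated histone H3, in the control that DNA methylation exerts over splicing. All samples were mouse embryonic stem (ES) cells grown without feeder cells on gelatin, with leukaemia inhibitory factor. WT cells are the R1 line. TKO cells are a line without the DNA methyltransferases Dnmt1, Dnmt3a and Dnmt3b, so any other difference between the 2 lines goes with that loss. Single knock-downs in WT cells used 90 nM of siRNA to HP1alpha (gene Cbx5), HP1beta (Cbx1) or HP1gamma (Cbx3). A mix of the 3 siRNAs, 60 nM of each, gave the triple knock-down. The mix given to TKO cells held 80, 80 and 120 nM, and that group is called the triple knock-down in TKO. RNA was taken 48 h after transfection, with 2 replicates per group. The authors pooled both replicates into 1 summary per group before deposit, so each value below comes from 1 pooled library and carries no replicate error. WT and TKO were untransfected and read as 50-base single-end reads, whereas all 5 knock-downs were transfected and read as 101-base paired-end reads. The labels name no control siRNA. Knock-down, transfection and read type therefore cannot be told apart in any comparison of a knock-down with an untransfected library.

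The cytoplasmic ribosome joins a small subunit, which reads the mRNA, to a large subunit, which forms the peptide bond. Ribosomal protein genes are among the most highly expressed genes of dividing cells, and loss of 1 copy of several of them, RPS24 included, causes Diamond-Blackfan anaemia in people. Transcripts of Rps24 differ at their 3′ end through very short alternative exons, whose use is known to vary between tissues and which change only the C-terminal end of the protein.

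Both events use the same upstream exon of 111 nucleotides (24493383 to 24493493). The 20-nucleotide exon (24495430 to 24495449) lies 1936 nucleotides after it and 325 nucleotides before a downstream exon of 372 nucleotides (24495775 to 24496146). The 18-nucleotide exon (24494052 to 24494069) lies between the 111-nucleotide and the 20-nucleotide exon, with introns of 558 and 1360 nucleotides on its sides. Its event takes the 20-nucleotide exon as the downstream exon. Both events thus count reads that join the 111-nucleotide to the 20-nucleotide exon, for inclusion in the one and for skipping in the other, and they are not independent. By length, the 18-nucleotide exon keeps the reading frame and the 20-nucleotide exon shifts it. RefSeq lists 6 mRNAs and 1 model transcript for the gene, whose exons were not used here, so neither exon is assigned to a coding or untranslated part. The sequences of the exons are not printed.

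**Figure D1:**
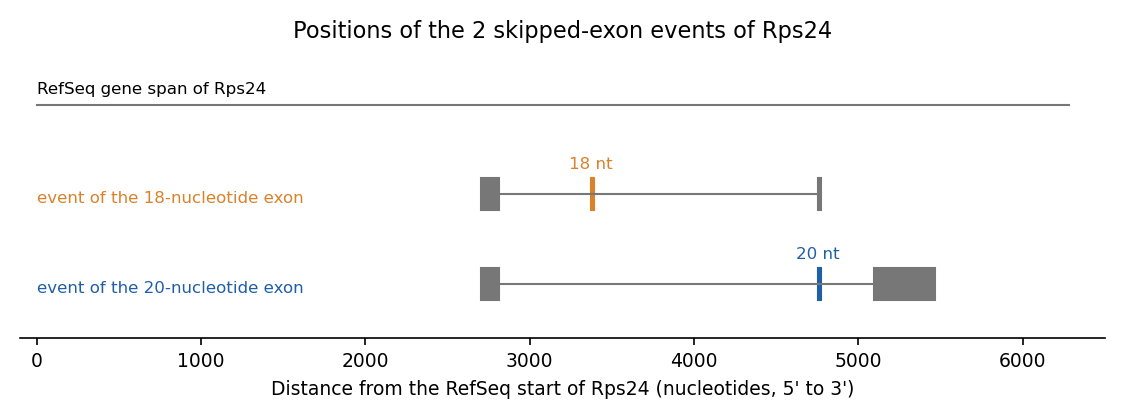
The horizontal axis gives the distance in nucleotides from the RefSeq start of Rps24. Each lower line is one event, with its outer exons in grey and its cassette exon in colour. The 20-nucleotide exon is the cassette of one event and the downstream exon of the other.

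Depth differed between the kinds of library. Reads over all events numbered 25941844 in WT and 25200437 in TKO, against 4677236 to 9750348 after knock-down. The targeted genes were read from their events in RPM, an event's reads scaled to 1000000 event reads of the library. Among the single knock-downs Cbx5 was at 43.0 RPM where it was the target and at 105 and 110 elsewhere, Cbx1 at 507 against 1520 and 1620, and Cbx3 at 32.2 against 49.6 and 52.2. In the triple knock-downs of WT and TKO cells Cbx5 was at 56.2 and 50.5 RPM, Cbx3 at 36.1 and 35.1 and Cbx1 at 551 and 1000. Untransfected WT and TKO had 615 and 659 RPM of Cbx1 and 457 and 480 of Cbx3. Cbx3 thus had a lower RPM in every knock-down, whether targeted or not. Cbx1 had a higher RPM after HP1alpha (1520) and HP1gamma knock-down (1620) and in the triple knock-down in TKO (1000). In the remaining knock-downs Cbx1 was lower. RPM is not comparable between the kinds of library, so these differences are not read as changes in expression. Of 15 pluripotency markers 7 or 8 had an event in each library, Zfp42, Klf4, Sall4 and Tdh among them, with summed levels of 2560 to 3560 RPM. Pou5f1, Nanog and Sox2 had none listed, which is no measure of their level. Of 16 markers of differentiated cells and fibroblasts 1 to 3 had one, with 331 to 442 RPM.

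The 20-nucleotide exon of Rps24 was mostly skipped in the untransfected libraries and mostly included in every knock-down. Its inclusion level, the deposited share of transcripts (0 to 1) that include the exon, was 0.21 in WT (deposited interval 0.19 to 0.22) and 0.15 in TKO (0.13 to 0.17). In the knock-downs of WT cells it was 0.80 (0.76 to 0.84) for HP1alpha, 0.79 (0.75 to 0.82) for HP1beta, 0.81 (0.78 to 0.85) for HP1gamma and 0.82 (0.77 to 0.86) for the triple knock-down. The triple knock-down in TKO stood at 0.84 (0.81 to 0.87). The 2 untransfected libraries were thus low and all 5 knock-downs high, with a gap of 0.58 between the kinds of library. Of 6143 events listed in all 7 libraries, 0.814% had such a gap of at least 0.3 upwards and 3.81% downwards. Separation by a smaller gap was not counted over all events. In bulk RNA, a change within every cell and a change in the share or RNA content of some cells cannot be told apart. Ordered by level, TKO was lowest, followed by WT, then HP1beta, HP1alpha, HP1gamma, the triple knock-down and the triple knock-down in TKO. Neighbouring intervals overlapped within the knock-downs and were apart between TKO and WT and between WT and the HP1beta knock-down. The level of the interval is not stated in the files.

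The reads behind these levels showed the same order of size with a smaller gap. Reads that fit the inclusion isoform alone or the skipping isoform alone are called distinguishing reads here. WT had 642 for inclusion and 1190 for skipping, a read share of 0.350 (exact 95% binomial interval 0.329 to 0.373). TKO had 320 and 623, a share of 0.339 (0.309 to 0.371). The HP1alpha knock-down had 416 and 89, a share of 0.824 (0.788 to 0.856), and the HP1beta knock-down 474 and 111, a share of 0.810 (0.776 to 0.841). The HP1gamma knock-down had 437 and 85 (0.837, 0.803 to 0.868), and the triple knock-down 227 and 42 (0.844, 0.795 to 0.885). The triple knock-down in TKO had 596 and 101 (0.855, 0.827 to 0.880). The read share was close to the deposited level in the 5 knock-downs and above it in both untransfected libraries. It is not corrected for exon or read length, and its interval covers counting error only.

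**Figure D2:**
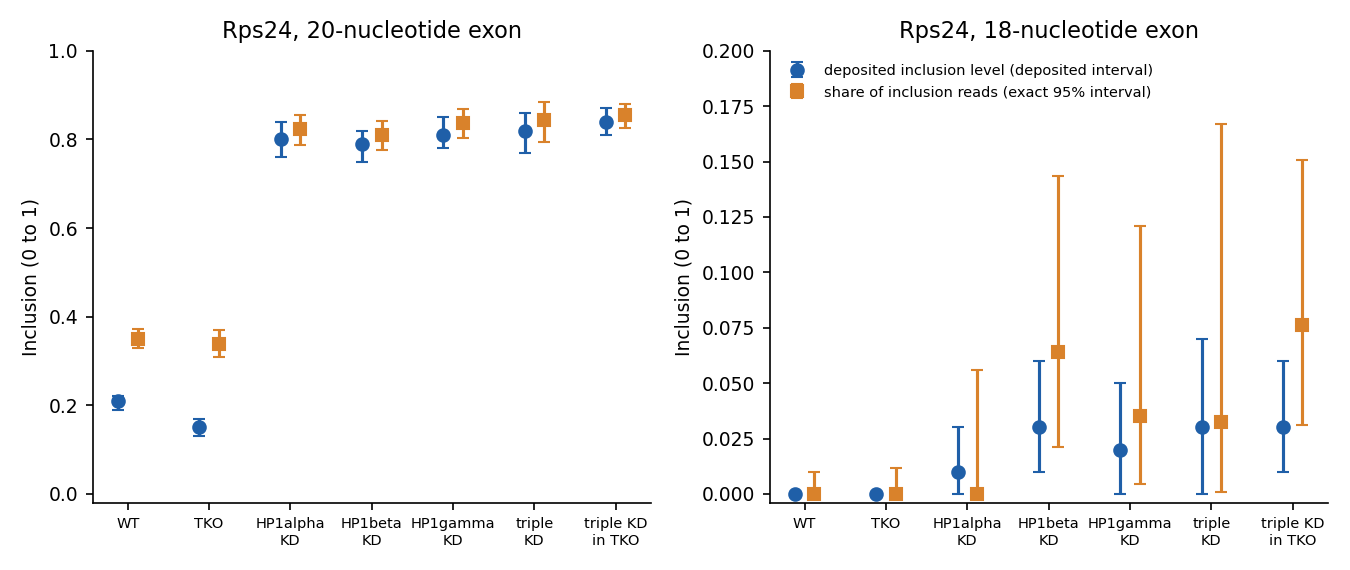
Points give the deposited inclusion level with its deposited interval, squares the share of inclusion reads with its exact 95% interval, for each library (KD, knock-down); the vertical axis is a share from 0 to 1, drawn to 0.2 for the 18-nucleotide exon. For the 20-nucleotide exon the 5 knock-downs lie at levels of 0.79 to 0.84, above WT at 0.21 and TKO at 0.15.

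The event of the 18-nucleotide exon compares isoforms that both hold the other cassette exon, which is its downstream exon. It gives no inclusion level for transcripts without that exon. Between those isoforms, the 18-nucleotide exon was nearly always skipped in every library. Its level was 0.00 in WT and TKO, 0.01 in the HP1alpha knock-down (0.00 to 0.03), 0.03 in the HP1beta knock-down (0.01 to 0.06), 0.02 in the HP1gamma knock-down (0.00 to 0.05), 0.03 in the triple knock-down (0.00 to 0.07) and 0.03 in the triple knock-down in TKO (0.01 to 0.06). WT had 0 inclusion reads among 376 distinguishing reads, TKO 0 among 320 and the HP1alpha knock-down 0 among 64. With a 0 read as up to 3 counts, these allow shares of up to 0.798%, 0.938% and 4.69%. The exact 95% intervals of the read share (0 to 1) reach slightly higher, to 0.0098, 0.0115 and 0.056. The HP1beta knock-down had 5 of 78, the HP1gamma knock-down 2 of 57, the triple knock-down 1 of 31 and the triple knock-down in TKO 7 of 92. Inclusion reads of this exon were thus seen in 4 of the 5 knock-downs and in neither untransfected library. With 0 of 64 reads, a share as high as in the HP1gamma knock-down is not excluded in the HP1alpha knock-down. Of all reads of this event, 96.7% to 98.4% fitted neither isoform after knock-down, against 22.2% in WT and 18.1% in TKO. Distinguishing reads made up 1.32% to 2.74% after knock-down, beside 0.899% in WT and 0.937% in TKO. Their part in the contrast between the kinds of library was not tested.

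Most reads of both events did not bear on inclusion, and their kind differed between the libraries. In the event of the 20-nucleotide exon, 77.0% of 47439 reads in WT and 81.4% of 39157 in TKO fitted both isoforms, and 19.1% and 16.2% fitted neither. In the knock-downs 4.50% to 6.93% fitted both and 77.1% to 86.0% fitted neither, of 2844 to 5348 reads. Distinguishing reads made up 3.86% in WT and 2.41% in TKO, against 9.44% to 16.0% after knock-down, highest in the triple knock-down in TKO. Over all events the median share that fitted both isoforms was 31.8% to 32.5% in the untransfected libraries and 3.66% to 4.33% in the knock-downs, and the median share that fitted neither was 43.5% to 44.9% and 66.3% to 68.9%. Events of ribosomal protein genes were close to the event of the 20-nucleotide exon, and events of very short exons were close to it only after knock-down. Over the 18 events of ribosomal protein genes, Rps24 included, the median share fitting both isoforms was 76.7% in WT and 78.7% in TKO, and the median share fitting neither was 74.3% to 78.0% after knock-down. Over exons of at most 27 nucleotides 80.8% to 84.1% fitted neither after knock-down. In WT and TKO, however, 34.8% and 34.0% fitted both isoforms over these exons, and 55.1% and 56.7% fitted neither. Those values were near the ones over all events and unlike the event of the 20-nucleotide exon. The part of these read classes in the difference between knock-downs and untransfected cells was not tested.

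**Figure D3:**
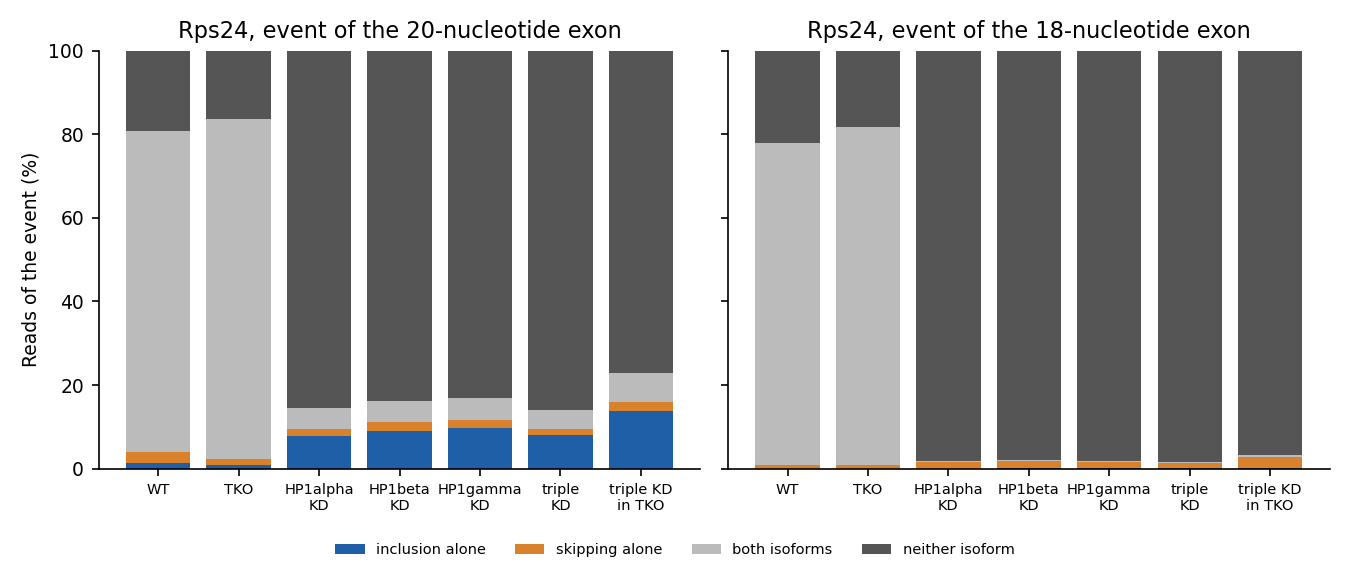
Bars give the percentage of an event's reads that fit inclusion alone, skipping alone, both isoforms or neither, per library (KD, knock-down). For the 20-nucleotide exon, reads that fit both isoforms fill 77.0% in WT and 81.4% in TKO, while reads that fit neither fill 77.1% to 86.0% in the knock-downs.

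Reads that join the 111-nucleotide exon directly to the 20-nucleotide exon could be read from the other event, where they count as skipping of the 18-nucleotide exon. WT had 376 of them beside its 642 inclusion reads of the 20-nucleotide exon. TKO had 320 beside 320. The knock-downs had 30 to 85 beside 227 to 596, that is 12.6% to 15.4%, against 58.6% in WT and 100% in TKO. In the event of the 18-nucleotide exon 96.7% to 98.4% of the knock-down reads fitted neither isoform. The percentage is therefore not comparable between the kinds of library. The 2 untransfected libraries, alike in read type and in read share, thus differed in this percentage. The counts do not show whether the reads of both events are the same reads. If they are, TKO has no inclusion read that the other event does not also count, and its read share of 0.339 and every odds ratio against it rest on reads of the upstream joint alone. This was not tested.

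The gene table lists 2 pseudogenes named for Rps24 (Rps24-ps2 and Rps24-ps3). Reads that match the gene and such a copy equally well cannot be told apart by these counts, and their part in the read classes was not tested. Reads of the 20-nucleotide event came to 1830 RPM in WT, 1550 RPM in TKO and between 548 and 608 RPM after knock-down. An event's reads are not a measure of gene expression comparable between the kinds of library.

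Loss of the DNA methyltransferases was examined first in untransfected cells. The 20-nucleotide exon stood 0.06 lower in TKO than in WT by its deposited level, with intervals apart, and it was not called. A call required an adjusted p of at most 0.05 in Fisher's exact test on distinguishing reads and a difference in level of at least 0.1. The distinguishing reads gave an odds ratio of 0.952 (exact 95% interval 0.804 to 1.13) and adjusted p = 1 in the exact test. The deposited levels and the reads thus differed on whether inclusion was lower in TKO: the levels were apart beyond their intervals, the read shares of 0.339 and 0.350 were not. Of 7695 exons tested between these libraries 352 were called, 4.57%, and 1713 had a larger absolute difference in level than this exon. The 18-nucleotide exon had no inclusion read in either library and was not called.

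Under the triple knock-down, TKO and WT cells differed in siRNA dose, higher in TKO, as well as in the methyltransferases. Cbx1 was at 1000 RPM in the triple knock-down in TKO and at 551 RPM in that of WT cells. Cell line, dose and extent of HP1beta knock-down therefore cannot be told apart here, and their parts were not tested. The level of the 20-nucleotide exon was 0.84 in TKO and 0.82 in WT cells, a difference of 0.02 in the opposite direction. The odds ratio was 1.09 (0.719 to 1.64) and Fisher's exact test gave an adjusted p of 1, so odds in TKO from 0.719 to 1.64 times those in WT cells fit the reads. For the 18-nucleotide exon the level was 0.03 in both, with 7 of 92 reads in TKO against 1 of 31 and an odds ratio of 2.46 (0.295 to 115) that these reads barely limit. Called exons made up 0.469% of 4473 in this comparison, and neither Rps24 exon was among them.

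Knock-down of all 3 HP1 genes was tested in TKO cells, since the contrast that chose the exon was the one in WT cells. The TKO libraries divide by read type and transfection in the same way as those in WT cells. The test is therefore no independent support for that contrast. Inclusion of the 20-nucleotide exon was 0.84 after knock-down and 0.15 without, a difference of 0.69. The odds of inclusion were 11.5 times as high (8.89 to 14.9), and Fisher's exact test, adjusted over 5188 exons, gave p = 3.9e-100. The test compares 2 libraries of different read type, not 2 conditions. Cbx1 was at 1000 RPM in the knock-down library and 659 in TKO, values that are not comparable between read types. Among knock-downs of WT cells, Cbx1 was at 1520 (HP1alpha) and 1620 (HP1gamma) where untargeted. Where targeted, it was at 507 (HP1beta) and 551 (triple). How far Cbx1 was reduced in TKO cells was not tested. Calls in this comparison were 12.3% of tested exons and went mostly downwards, with 68 higher and 568 lower, so that 1.31% were called higher. Of all exons tested 25 had a larger absolute difference. The 18-nucleotide exon had 0 inclusion reads of 320 in TKO and 7 of 92 after knock-down, for which Fisher's exact test gave an adjusted p of 0.000247. Its level differed by 0.03, under the 0.1 that a call needs. In WT cells the triple knock-down differed from WT by 0.61 in level and 0.493 in read share, beside 0.69 and 0.516 in TKO cells. Whether the 2 cell lines differ in this respect was not tested.

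The knock-downs of the single HP1 genes and the triple knock-down did not separate at either exon. Over the 6 pairs of knock-downs in WT cells the level of the 20-nucleotide exon differed by −0.02 to 0.03. The odds ratios lay between 0.831 and 1.27, with exact 95% bounds from 0.600 to 1.92, and adjusted p was 1 in each pair. Differences within these bounds are not excluded at 269 to 585 distinguishing reads. The widest gap was between the triple (0.82) and the HP1beta knock-down (0.79), and it was smaller than the width of either interval. The 18-nucleotide exon differed by −0.02 to 0.02, on 31 to 78 reads. Few exons of any gene were called between these libraries: 0.0171% for HP1alpha against HP1beta, 0.0% for HP1alpha against HP1gamma, 0.0190% for HP1beta against HP1gamma, 0.0214% for the triple against the HP1alpha, 0.0% against the HP1beta and 0.0217% against the HP1gamma knock-down. Where 0 exons were called by Fisher's exact test, 147 (HP1alpha against HP1gamma) and 115 (triple against HP1beta) had an unadjusted p under 0.05, and the test with a null set by exon length also called 0.

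The same WT library serves in each comparison of a knock-down with WT, so the differences of 0.59 for HP1alpha, 0.58 for HP1beta, 0.60 for HP1gamma and 0.61 for the triple knock-down are not independent of each other. In read share these differences were 0.473, 0.460, 0.487 and 0.493.

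Among 6143 events listed in all 7 libraries, 50 (0.814%) had every knock-down above both untransfected libraries by at least 0.3 in level, the 20-nucleotide exon of Rps24 among them with a gap of 0.58. A larger gap was found for 4 events. The opposite pattern, every knock-down lower by at least 0.3, held for 234 events (3.81%). Exons of at most 27 nucleotides made up 182 of the 6143, with 8 higher (4.40%) and 4 lower (2.20%). The 8 included Rps24, exons of 18 nucleotides in the adhesion receptor gene Adgrl1, of 19 in the mitochondrial ribosomal protein gene Mrpl33 and of 25 in the acetyltransferase subunit gene Naa20. The levels of Mrpl33 were 0.04 (WT), 0.02 (TKO) and 0.50 to 0.81 (knock-downs) and spread widely among the knock-downs. Adgrl1 also spread widely, at 0.56 to 0.96 after knock-down. The others of the 8 spread about as narrowly as Rps24 at 0.79 to 0.84. They were Naa20 (0.54 to 0.58), Zbtb8os (0.89 to 0.96), Ptprs (0.44 to 0.52), Mtch2 (0.72 to 0.80) and a 6-nucleotide exon without a gene name (0.99 to 1.00). The 18-nucleotide exon of Rps24 had a gap of 0.01. Most very short exons had no inclusion read in a given library. Of exons of at most 20 nucleotides with 20 or more distinguishing reads, 15.3% of 118 in WT, 14.4% of 125 in TKO and, per knock-down, 17.6% to 21.7% of 51 to 75 had at least 1. These counts use the contrast that chose Rps24 and are given as a description.

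**Figure D4:**
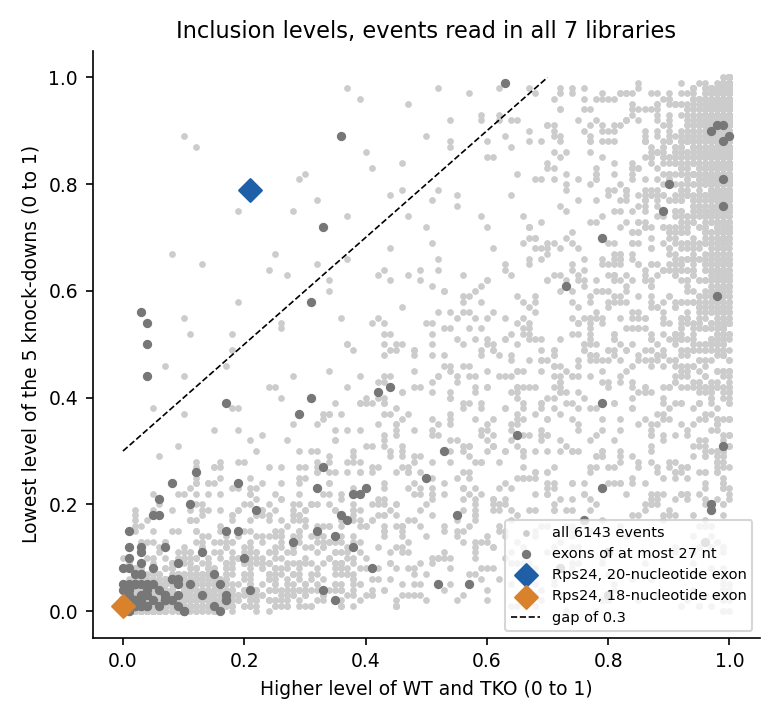
Each point is 1 of 6143 events read in all 7 libraries, with the higher of the WT and TKO inclusion levels on the horizontal axis and the lowest level of the 5 knock-downs on the vertical axis, both shares from 0 to 1. The dashed line marks a gap of 0.3; the 20-nucleotide exon of Rps24 lies above it at 0.21 and 0.79, the 18-nucleotide exon in the lower left corner.

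The 5 exons whose levels came closest to the 20-nucleotide exon over the 7 libraries were 27 to 271 nucleotides long. Likeness was the root-mean-square difference in level, taken within the RefSeq span of other genes. Closest was a 271-nucleotide exon of Rbm3, a cold-induced RNA-binding protein (X chromosome, 8144175 to 8144445), at 0.045. Its level was 0.19 in WT and 0.12 in TKO, against 0.75 to 0.86 after knock-down. Next came exons of Morf4l1, a chromodomain protein (114 nucleotides, 0.083), of Ewsr1, an RNA-binding protein (35 nucleotides, 0.089), of Mtch2, a mitochondrial outer membrane protein (27 nucleotides, 0.090), and of Trp53bp1, a factor of DNA break repair (120 nucleotides, 0.091). All 5 were low in both untransfected libraries, at 0.11 to 0.33, and high in all knock-downs, at 0.72 to 0.93. That pattern follows from their choice by likeness to Rps24 over the same libraries and is no separate result. The 7 libraries fall into 2 kinds of read type, so the 7 points behind each value are not independent. Ranked by Pearson correlation instead, 0 of these 5 exons remained among the first 5.

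**Figure D5:**
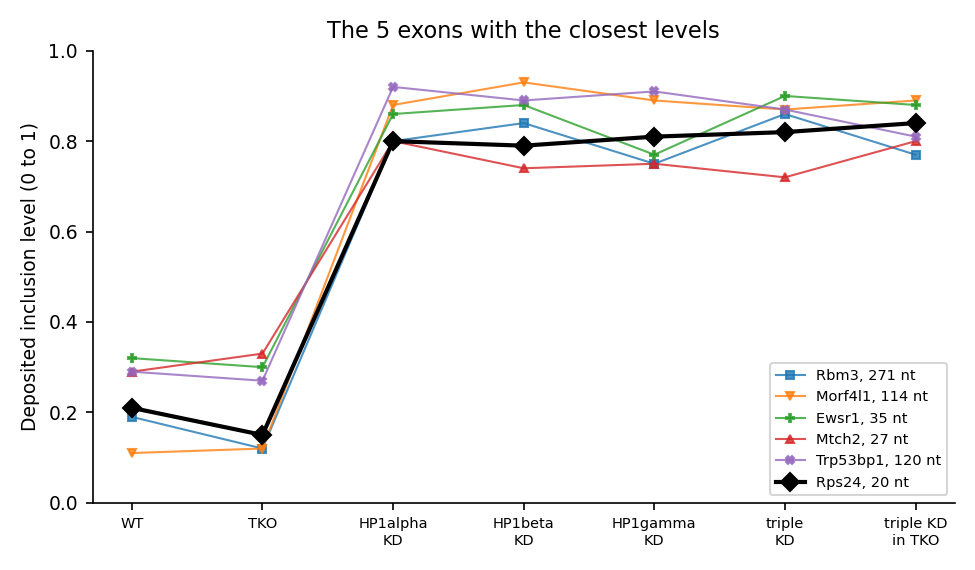
Lines give the deposited inclusion level (vertical axis, 0 to 1) of the 20-nucleotide exon of Rps24 and of the 5 exons with the smallest root-mean-square difference from it, over the 7 libraries (KD, knock-down). All 6 lines are low in WT and TKO and high in the 5 knock-downs, which follows from the choice of exons by likeness.

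Few exons of other ribosomal protein genes could be tested. Of 83 genes of cytoplasmic ribosomal proteins in the list, 12 had events, 18 in all, and all 18 were listed in every library. Between TKO and WT, 0 of 16 tested events of the other genes were called, where 4.57% of all exons were, with differences of −0.08 to 0.09 and a median absolute difference of 0.01 against 0.02 over all tested exons. Between the triple knock-down in TKO and TKO, 0 of 13 were called higher, 4 lower and 9 not called, beside 68 higher and 568 lower of 5188 over all exons, with a median difference of −0.04, the same as over all exons. The lower ones were an exon of Rpl10, a protein of the large subunit (X chromosome, 74272672 to 74272834), and 3 overlapping forms of 1 exon of Rps27l, a close relative of Rps27 (chromosome 9, ending at 66948717). The Rps27l exon of 77 nucleotides stood at 0.01 with 28 inclusion and 1385 skipping reads after knock-down, and at 0.25 with 161 and 0 in untreated TKO cells (adjusted p = 2.66e-188 by Fisher's exact test). Rpl10 stood at 0.24 against 0.99, although its reads were mostly for inclusion in both, 976 and 12 against 17739 and 62 (adjusted p = 0.00349, Fisher's exact test). Between the 2 triple knock-downs 0 of 13 were called, where 0.469% of all exons were. At 13 to 16 exons, counts of 0 are no sign that these genes stand apart from other exons. A 23-nucleotide exon of Rpl41 (chromosome 10, 128548658 to 128548680), named after its values were seen as the other very short exon of the list, had levels of 0.16 in WT and 0.13 in TKO, against 0.00 to 0.13 after knock-down. The levels of 0.00 rest on 5 distinguishing reads in the HP1beta and 2 in the HP1gamma knock-down. The Rpl41 exon did not show the gap between kinds of library seen at the 20-nucleotide exon of Rps24.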

How the data were processed

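RNA of 14 samples in 7 groups was used; the bisulfite and MNase samples were not analysed here. Both replicates of a group share 1 summary, pooled by the authors per the labels. The columns are those of MISO, per the file headers. The deposited inclusion level is a fraction, MISO's posterior mean, with an interval and with read counts per class written by the authors. TopHat2, Bowtie2 and mm10 appear in the submitters' processing notes, without versions; for the event annotation no source used here gives a name. Every deposited event had at least 100 reads.

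Genes came from the GRCm38.p6 RefSeq table: the gene span around the whole event regardless of strand, with named protein-coding genes preferred. Each exon's inclusion-alone and skipping-alone reads in 2 libraries entered Fisher's exact test (two-sided), run in Python 3.11.15 with numpy 2.4.6 and scipy 1.17.1, and adjusted by Benjamini-Hochberg over all exons with at least 20 such reads in each. Calls needed an adjusted p of at most 0.05 and a difference of at least 0.1 in level. Tests compare libraries, not conditions. The exact test and calls were tested on simulated data. A count of 0 was read as up to 3 counts.

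The members, gene lists and tests were chosen with earlier results of these data known. The rule for named genes took all Rps24 events, up to 10 called ribosomal protein exons per comparison and the 5 exons closest in level.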

Additional observations from a re-analysis of the deposited data

How the results depend on the processing

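Neither Rps24 exon changed its call in any of the 9 tested comparisons under the alternatives run: a minimum of 10 or 50 distinguishing reads (the 18-nucleotide exon has no value at 50 where a library has fewer), a difference of at least 0.2, a call by deposited intervals that do not overlap together with the difference of 0.1, and a null odds ratio set by exon length. Every alternative keeps a difference in level of at least 0.1, and none alters the level. The difference reached 0.1 only for the 20-nucleotide exon in TKO cells with against without the triple knock-down. Elsewhere no call was possible under any setting, so the lack of change there is no sign of stability. For the 20-nucleotide exon in TKO against WT the null set by exon length was 1.24. The exact test then gave an adjusted p of 0.0236, against 1 otherwise. The inclusion level of this exon taken as a read share was 0.350 in WT and 0.339 in TKO, and the shares of the authors' assigned reads, 0.210 and 0.151, were near the deposited levels. The cause was not tested.

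Counts over all exons moved more. At a difference of 0.2 there were 147 calls for TKO against WT, 11 between the triple knock-downs and 384 for TKO cells with against without the triple knock-down. By intervals there were 71 between the triple knock-downs and 1013 in TKO cells with against without it. Between the knock-downs of WT cells the intervals gave 30 (HP1alpha, HP1beta), 31 (HP1alpha, HP1gamma), 16 (HP1beta, HP1gamma), 12, 9 and 20 (triple against HP1alpha, HP1beta and HP1gamma). At a minimum of 10 reads there was 1 for HP1alpha against HP1gamma, 2 for HP1beta against HP1gamma and 2 for triple against HP1gamma. With the null set by length, calls in TKO cells with against without it numbered 432, beside 636 by the test as reported. No paired analysis was possible because replicates were pooled before deposit, and no replicate could be left out for the same reason.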
